A study of Oryza sativa Indica Group with 27 samples.

Results

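The comparison described here asked how the early transcriptional response to salt in Pokkali differed from that in IR29. For each transcript, the change between 3 h of salt and control in IR29 was subtracted from the same change in Pokkali. The result is called the response difference below. A positive value means that Pokkali rose more or fell less than IR29, and a negative value means that Pokkali rose less or fell more. It rests on 12 of the 27 arrays of the series, 3 in each of 4 groups. These are Pokkali after 3 h in 200 mM NaCl, Pokkali controls, IR29 after 3 h in 200 mM NaCl and IR29 controls. All were whole seedlings 7 days old, raised without soil in a growth medium. The controls stayed in that medium for 6 h at 28 °C, so no control was kept for the same 3 h as the salt seedlings. The free-text description of the 3 h samples names drought, whereas their titles, stress field and treatment text name salinity, and they were read as salt samples. Pokkali is a tall indica landrace known for salt tolerance, and IR29 is a modern indica line known for salt sensitivity. The labels describe the 3 arrays of a group as biological replicates and do not say how many seedlings each RNA pooled. The 6 arrays of both cultivars at 6 h of salt and the 6 Nonabokra arrays at 3 h and in control medium are set beside the comparison where they bear on it.

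Salt first reaches a plant as an osmotic stress and then as an excess of sodium. Osmotic stress raises abscisic acid (ABA), which binds receptors that switch off protein phosphatases of the 2C type. This frees SnRK2 kinases to activate bZIP factors, and these turn on late embryogenesis abundant (LEA) proteins and dehydrins, hydrophilic proteins that protect cells as they lose water. A parallel route runs through DREB factors of the AP2 family. Keeping sodium out of the shoot depends on potassium and sodium transporters and on the calcium-sensing CBL and CIPK proteins that control them.

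Intensities were analysed as log2(intensity + 16), and a transcript was called at an adjusted p under 0.05 with a response difference of at least 2-fold (1 on the log2 scale). At that limit 790 of 57194 probe sets had a higher response in Pokkali (1.38%) and 1272 had a lower one (2.22%), together 2062 (3.61%). With 1 probe set for each of 17905 genes the counts were 484 (2.7%) and 795 (4.44%), together 1279 genes (7.14%). Without the 2-fold limit 26842 probe sets passed (46.9%), 19882 higher (34.8%) and 6960 lower (12.2%), and 8024 genes (44.8%). Most of those calls were very small: under 2-fold, the median size was 0.029, and 75.3% of them had a mean intensity under 100. Their direction depended on the centring of the arrays. After median centring 5310 were higher and 19372 lower, with 757 higher and 1339 lower at 2-fold, and with quantile normalization 933 were higher and 1072 lower at 2-fold. Counts at 2-fold are therefore used for the whole array, and counts without it only for gene lists, where the background is 19.3% of genes higher and 25.5% lower. The median of all probe sets lay at 0.01.

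Many transcripts differed between 3 h of salt and control in both cultivars. Genes that passed at 2-fold in both mostly moved in the same direction. The controls stood for 6 h, so salt and the hour of harvest cannot be told apart in these changes. In Pokkali 1536 probe sets were higher (2.69%) and 1578 lower (2.76%) by 2-fold or more at 3 h of salt, and in IR29 1605 were higher (2.81%) and 903 lower (1.58%). Over genes these shares were 5.67% higher and 5.79% lower in Pokkali and 5.96% higher and 3.18% lower in IR29. Without the 2-fold limit 11.8% of probe sets were higher and 13.4% lower in Pokkali, and 15.7% higher and 48.2% lower in IR29. Most of the lower calls in IR29 were under 2-fold, and the median IR29 response over all probe sets was -0.009. Median array intensities were 7.46 to 7.77 in IR29 controls and 7.16 to 7.25 in IR29 with salt. Among 12953 genes with a group mean of 100 or more, 1948 passed at 2-fold in Pokkali and 1530 in IR29. Of these, 812 passed in both and moved the same way, 28 passed in both and moved in opposite directions, and the rest passed in a single cultivar. Across those genes the 2 responses had a Pearson correlation of 0.66, which describes genes within the same arrays and not independent replicates.

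**Figure D1:**
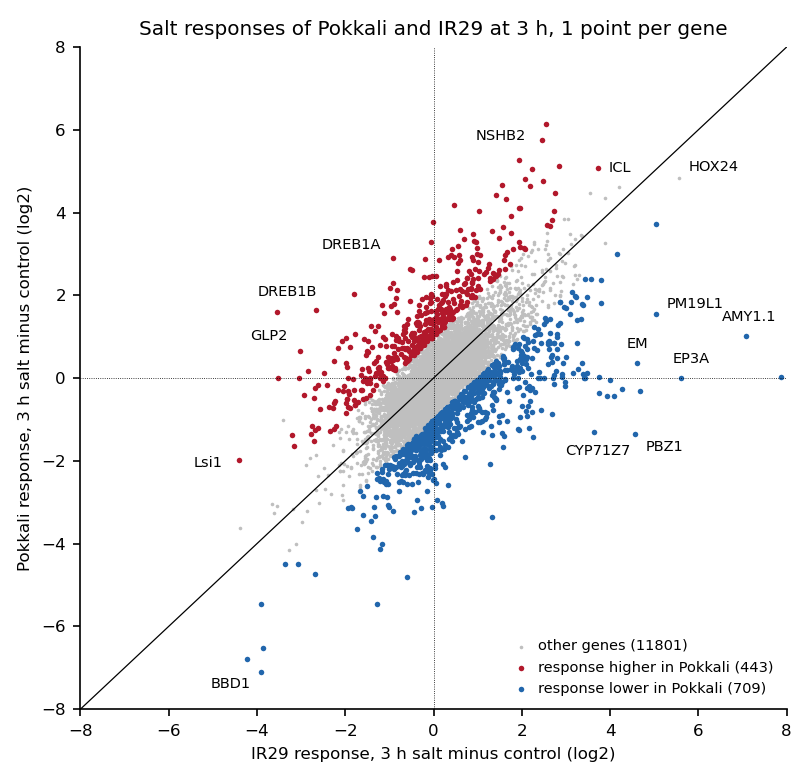
Each point is 1 of 12953 genes with a group mean intensity of 100 or more, placed by its IR29 response (horizontal axis) and its Pokkali response (vertical axis), both 3 h salt minus control on the log2 scale. The line marks equal responses, and the 443 red (3.42%) and 709 blue (5.47%) genes passed at 2-fold with a higher or a lower response in Pokkali. DREB1A and DREB1B lie at the upper left, PBZ1, EP3A and AMY1.1 far to the right.

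A response difference can come from either cultivar. Of the 484 genes with a positive value, 215 rose by 2-fold or more in Pokkali while IR29 passed in neither direction, 53 rose in both, 106 fell in IR29 only, 11 fell in both, 10 rose in Pokkali and fell in IR29, and 89 passed in neither cultivar alone. Of the 795 genes with a negative value, 302 fell in Pokkali only, 254 rose in IR29 only, 44 fell in both, 35 rose in both, 20 fell in Pokkali and rose in IR29, and 140 passed in neither. Salt brought the cultivars closer together than they were unstressed for 204 of the 484 and for 399 of the 795. The control arrays enter both the unstressed gap and the response, so these shares are a description only.

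The DREB1 factors, AP2 proteins best known for switching on cold and dehydration genes, led the positive side. DREB1B had intensities of 64.1, 45.1 and 62.4 at 3 h of salt and 8.15, 6.73 and 7.22 in control medium in Pokkali, against 7.23, 6.66 and 6.57 at 3 h of salt and 122, 138 and 125 in control medium in IR29. Salt and control arrays did not overlap in either cultivar, and the cultivars moved in opposite directions. The response difference was 4.29 ± 0.11 on the log2 scale (SE, n = 3 per group, adjusted p = 1.2e-15), from a rise of 1.64 in Pokkali and a response of -2.66 in IR29. DREB1A stood at 174, 166 and 181 with salt and 8.79, 9.6 and 9.15 without in Pokkali, against 24.9, 16.5 and 21 with salt and 54.6, 60.3 and 46.1 without in IR29. Its response difference was 3.83 ± 0.16 (adjusted p = 1.1e-12), so the cultivar with the lower unstressed level ended with the higher one. DREB1G (2.70 ± 0.18) showed the same crossing, with group means of 56.9 at 3 h of salt and 8.58 in control medium in Pokkali, and 8.9 and 39.6 in IR29. DREB1E was dim throughout, with group means from 11.6 to 31.8, and differed by 1.24 ± 0.11. DREB2A, a drought-type DREB factor, rose by 1.27 in Pokkali and 1.32 in IR29, with a difference of -0.05 ± 0.15 that did not pass (adjusted p = 0.78). Of 13 AP2/ERF and DREB genes, 6 were higher and 0 lower at adjusted p under 0.05, 4 of them by 2-fold, and 7 did not pass. At an unadjusted p under 0.05 in limma the counts were also 6 and 0, and with adjustment 19.3% of all genes were higher and 25.5% lower. In the RefSeq gene order, DREB1B and DREB1A are the first and last of 3 neighbouring genes, of which 2 were measured.

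**Figure D2:**
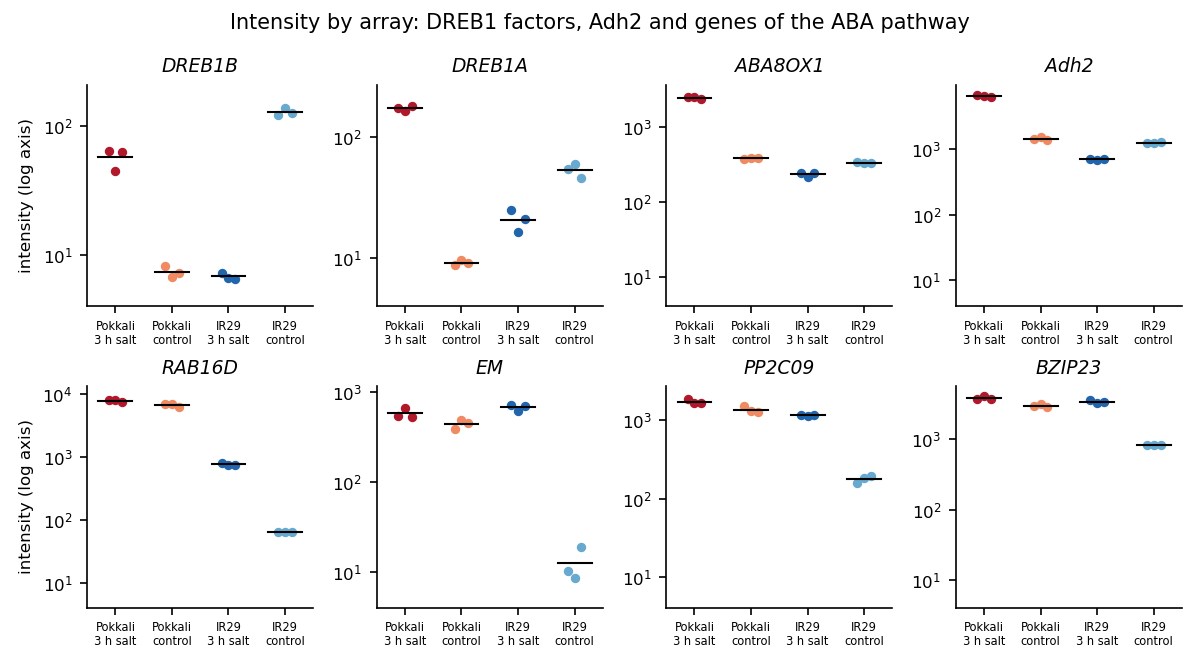
Intensity on each of the 12 arrays (points, log axis) for 8 genes, with the mean of the 3 arrays of a group as a bar. DREB1B and DREB1A are higher with salt than in control medium in Pokkali and lower in IR29, while RAB16D, EM, PP2C09 and BZIP23 are lowest in the IR29 controls.

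Several other genes rose in Pokkali and rose little or fell in IR29. ABA8OX1, a hydroxylase that breaks abscisic acid down, had 2482, 2505 and 2348 with salt and 378, 388 and 389 without in Pokkali, against 242, 215 and 241 with salt and 336, 332 and 328 without in IR29. The 2 cultivars were close before salt and separate after it, and the response difference was 3.10 ± 0.09 (adjusted p = 6e-15). ABA8OX2, a second hydroxylase, rose in both cultivars, by 1.55 in Pokkali and 1.83 in IR29, and its difference was -0.28 ± 0.09 (adjusted p = 0.018), a call that was lost with quantile normalization and with a pseudocount of 64. Of the 4 measured genes of abscisic acid synthesis, breakdown and reception, ABA8OX1 alone was higher, PYL11 and ABA8OX2 were lower by less than 2-fold, and ZEP did not pass. Adh2, an alcohol dehydrogenase of fermentation, had 6675, 6437 and 6308 with salt and 1444, 1527 and 1403 without in Pokkali, against 702, 692 and 708 with salt and 1239, 1240 and 1294 without in IR29. It rose by 2.14 in Pokkali and had a response of -0.83 in IR29, a difference of 2.97 ± 0.09 (adjusted p = 1.1e-14). TPP7, a trehalose phosphate phosphatase, likewise rose by 1.43 in Pokkali, with a response of -0.58 in IR29 and a difference of 2.01 ± 0.07 (adjusted p = 1.1e-13).

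A further group rose in both cultivars and rose more in Pokkali. NSHB2, a haemoglobin that scavenges nitric oxide, had 4412, 4567 and 4574 with salt and 75.8, 71.1 and 60 without in Pokkali, against 1106, 1068 and 1011 with salt and 195, 175 and 170 without in IR29. The arrays of the 4 groups did not overlap, and the difference was 3.28 ± 0.15 (adjusted p = 3.7e-12). LTP-2, a lipid transfer protein, had 3156, 3190 and 2954 with salt and 71, 85.3 and 76.2 without in Pokkali, against 110, 100 and 101 with salt and 9.26, 9.21 and 10.6 without in IR29, a difference of 2.84 ± 0.18 (adjusted p = 2.8e-10). CPDK2, also listed as PPDK2, differed by 3.00 ± 0.11. CML15, a calmodulin-like protein, differed by 2.46 ± 0.07, and its salt means were 682 in Pokkali and 434 in IR29. TIP3;1, a tonoplast aquaporin known from seeds, rose by 4.48 in Pokkali and 2.74 in IR29. ICL encodes isocitrate lyase, which lets plants turn stored fat into sugar. It rose by 5.09 in Pokkali and 3.74 in IR29 to salt means of 3838 in Pokkali and 3642 in IR29, and the larger response in Pokkali came with a lower unstressed level. The salt-induced lectin salT rose in both with a difference of 1.47 ± 0.10 (adjusted p = 7.7e-10), yet its salt means were 7815 in Pokkali and 10310 in IR29. CKX4, a cytokinin oxidase, rose by 2.85 and 0.60. In the same class, CDKE-1 differed by 3.33 on the probe set used and by -0.07 on its other one, and HSP18.6 by 2.58, with a lowest value of 0.01 among its 3 probe sets. Both therefore depend on the probe set chosen.

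The LEA and dehydrin genes, classic targets of abscisic acid, had negative response differences, with 1 exception. All 8 rose with salt in both cultivars (background 24.9% of genes in Pokkali and 32.7% in IR29). Over all genes 28.2% fell in Pokkali and 31.4% in IR29. Of the 8, 7 had a lower response in Pokkali, against 25.5% of all genes, and 5 of them by 2-fold. A higher response was seen for 0, against 19.3% of all genes, and rab25 did not pass (0.10 ± 0.15). At an unadjusted p under 0.05 in limma the count with a higher response was also 0. The median response difference of the list was -1.39, against -0.04 over all genes. The median gap between unstressed Pokkali and unstressed IR29 was 2.26, so these transcripts were higher in Pokkali before salt. RAB16D had 8135, 7966 and 7423 with salt and 7022, 6961 and 6310 without in Pokkali, against 792, 761 and 738 with salt and 65.2, 63.4 and 64.3 without in IR29. Every Pokkali array, with or without salt, lay above every IR29 array. The response difference was -3.07 ± 0.09 (adjusted p = 6.4e-15), with responses of 0.21 in Pokkali and 3.28 in IR29. EM, a LEA protein of the early methionine-labelled group, had 545, 662 and 527 with salt and 390, 484 and 453 without in Pokkali, against 717, 610 and 700 with salt and 10.3, 8.52 and 19 without in IR29. At 3 h of salt its levels overlapped between the cultivars, and the gap there was -0.22 ± 0.12 (adjusted p = 0.25). RAB16C, Dhn1 and LEA19 (also named LEA3) differed by -2.05, -1.72 and -1.06, with values up to 0.03 among the 3 probe sets of Dhn1. RAB21 and RAB16B passed at less than 2-fold, at -0.47 and -0.46, though the other probe set of RAB21 stood at 0.21. RAB21 had means of 27526 with salt and 8250 without in Pokkali, against 6995 with salt and 1507 without in IR29. RAB16D, RAB16C, RAB16B and RAB21 stand within 6 neighbouring genes in the RefSeq order and are paralogues, so probes of one may pick up transcripts of another. PM19L1, a plasma membrane protein induced by abscisic acid, had means of 7927 with salt and 2678 without in Pokkali, against 2091 with salt and 48.6 without in IR29. Its difference was -3.49 ± 0.16 on the probe set used, and 0.02 on its other one.

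Several signalling genes upstream of these were also high in unstressed Pokkali. PP2C09, a protein phosphatase 2C that restrains the pathway and is itself induced by it, had 1863, 1647 and 1656 with salt and 1505, 1329 and 1264 without in Pokkali, against 1179, 1126 and 1165 with salt and 159, 183 and 195 without in IR29. Only the IR29 controls lay apart by a wide margin, and the difference was -2.26 ± 0.11 (adjusted p = 9.2e-12). PP2C68, PP2C08 and PP2C30 differed by -1.78, -1.67 and -1.65, and ABIL1, another member of the phosphatase list, by -1.50. Of 55 phosphatases 2C, 7 were higher and 15 lower, 1 and 6 of them by 2-fold, and 33 did not pass, close to the background of all genes in the lower direction. BZIP23, a bZIP factor that activates abscisic acid targets, had 3783, 4063 and 3690 with salt and 2986, 3144 and 2884 without in Pokkali, against 3586, 3282 and 3375 with salt and 839, 841 and 838 without in IR29. Its difference was -1.65 ± 0.08 (adjusted p = 1.4e-11), and the salt levels nearly met. Against 25.5% lower and 19.3% higher over all genes, 6 of 13 SnRK2 kinases and ABA bZIP factors were lower, 3 by 2-fold. Of the 13, 0 were higher (also 0 at an unadjusted p under 0.05 in limma). They were not alike: SAPK6 rose less in Pokkali, while SAPK9, an SnRK2 kinase, fell by 3.65 in Pokkali and by 1.73 in IR29. CIPK5, a kinase that binds calcium sensors, stood at 281, 265 and 265 with salt and 445, 508 and 462 without in Pokkali, against 274, 264 and 277 with salt and 25.4, 49.1 and 40.8 without in IR29. The salt levels overlapped and the unstressed levels were far apart, with a difference of -3.19 ± 0.15 (adjusted p = 5.9e-12).

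Heat shock factors, which switch on chaperone genes, gave 13 lower and 1 higher of 20 (25.5% and 19.3% of all genes). At 2-fold 6 were lower and 1 higher (4.44% and 2.7% of all genes), and the median was -0.45. HSFA4D had 68.9, 74.2 and 74.2 with salt and 187, 173 and 200 without in Pokkali, against 161, 159 and 160 with salt and 24.1, 22.7 and 23.4 without in IR29. It fell in Pokkali and rose by 2.16 in IR29, a difference of -3.35 ± 0.11 (adjusted p = 3.9e-14). HSFA6B and HSFC2A differed by -2.14 and -1.64, and HSFA2C, the exception, by 1.22. Among 23 heat shock proteins 5 were higher and 9 lower (19.3% and 25.5% of all genes). HSP24.1, a small heat shock protein, fell by 1.40 in Pokkali and rose by 1.59 in IR29.

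The most negative values among named genes belonged to AMY1.1, PBZ1 and EP3A, which were far higher with salt than without in IR29. AMY1.1, an alpha-amylase that digests starch in germinating grain, had 25.2, 35 and 31.4 with salt and 6.86, 6.01 and 7.51 without in Pokkali, against 25808, 23584 and 23001 with salt and 135, 179 and 172 without in IR29. The 3 IR29 salt arrays stood far above all others, and the difference was -6.06 ± 0.14 (adjusted p = 1.8e-16). EP3A, a cysteine protease of germinating grain, had 5.2, 5.24 and 5.29 with salt and 5.2, 5.13 and 5.21 without in Pokkali, against 1068, 1139 and 905 with salt and 5.87, 5.35 and 5.31 without in IR29. All 9 arrays outside IR29 with salt lay at the array's floor, and the difference was -5.60 ± 0.13 (adjusted p = 1.3e-16). At 6 h of salt both were low. AMY1.1 averaged 10.3 ± 1.89 in Pokkali and 6.61 ± 0.831 in IR29 (SD, n = 3 each), the latter below the IR29 controls. EP3A averaged 5.12 in Pokkali and 5.24 in IR29. In Nonabokra AMY1.1 averaged 176 at 3 h of salt and 3440 in control medium, and EP3A 6.51 at 3 h of salt and 171 in control medium. Of the 7 amylases and germination hydrolases 1 was higher and 4 lower (19.3% and 25.5% of all genes), 3 of the 4 by 2-fold. AMY3E rose in IR29 to a mean of 41.5, while AMY3D rose in both cultivars by 2.73 and 2.78. The summed intensity of 8 seed endosperm and aleurone markers, of which AMY1.1 and EP3A are 2, was 484 to 513 with salt and 301 to 324 without in Pokkali, against 24370 to 27357 with salt and 440 to 488 without in IR29. The storage protein gene GLUA-1 was at the floor in all 4 groups, with intensities of 4.24 to 4.44, and GLUA-2 had means of 284 with salt and 266 without in Pokkali, against 283 with salt and 264 without in IR29. AMY1.1 and EP3A carried almost all of the IR29 salt sum. The other 6 markers summed to 447 to 476 with salt and 289 to 313 without in Pokkali, against 448 to 481 with salt and 296 to 304 without in IR29. In both cultivars 4 of these 6 had means under 20 with salt and 5 without. GLUA-2 carried most of each sum. Of the 8 markers 2 were lower, AMY1.1 and EP3A, and the 3 that passed as higher (AMY3A, GLUA-1 and prolamin) were dim, with means of at most 13.0 and differences of 0.009 to 0.18. In whole seedlings a change in the amount of a tissue and a change of RNA per cell cannot be told apart, and the part of remaining grain tissue in these results was not tested.

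The same IR29 arrays carried a rise of defence genes. PBZ1, a pathogenesis-related protein induced by probenazole, had 514, 627 and 524 with salt and 1579, 1414 and 1319 without in Pokkali, against 23570, 21341 and 23460 with salt and 947, 913 and 972 without in IR29. It fell by 1.35 in Pokkali and rose by 4.57 in IR29, a difference of -5.92 ± 0.10 (adjusted p = 5.2e-19). The enzymes of labdane-type diterpenoid phytoalexins, antimicrobial compounds of rice, were also higher with salt in IR29. CPS2, a copalyl diphosphate synthase of the phytocassane branch, had 15.9, 16.1 and 16.2 with salt and 25.1, 28.7 and 29.5 without in Pokkali, against 475, 540 and 502 with salt and 15.3, 13.1 and 16.2 without in IR29. CYP99A2, a cytochrome P450 of the momilactone branch, had 24.5, 24.5 and 20.2 with salt and 32.1, 35.2 and 35.6 without in Pokkali, against 512, 490 and 505 with salt and 20.7, 20.8 and 26.4 without in IR29. Their differences were -4.52 ± 0.15 and -4.11 ± 0.12, and among the arrays of the Pokkali and IR29 groups compared only the IR29 salt arrays were raised. Of 26 pathogenesis-related and diterpenoid genes, 14 were lower and 3 higher (25.5% and 19.3% of all genes). By 2-fold 11 were lower and 1 higher, and the median was -0.65. In IR29 19 of the 26 rose and 1 fell (32.7% and 31.4% of all genes), and in Pokkali 4 rose and 8 fell (24.9% and 28.2% of all genes), the last a share near that of all genes. The exception at 2-fold was Cht10, a chitinase, at 1.48.

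Many of these enzymes are encoded by neighbouring genes. The stretches given here were bounded after their values were seen and carry no test. In the RefSeq order the stretch from CYP76M5 to CYP76M6 holds 14 genes, of which 9 were measured. Of those, 6 were lower by 2-fold, namely CYP76M8 (-2.03), KSL7 (-2.07), CYP71Z6 (-2.54), CYP71Z7 (-4.94), CPS2 (-4.52) and the gene LOC4329723 (-4.54), which carries no name. The other 3, CYP76M5, KSL5 and CYP76M6, lay between -0.03 and 0.01, and their means stayed under 7 in all 4 groups, so their response was not measurable here. The stretch from CPS4 to CYP99A2 holds 9 genes, of which 5 were measured. CPS4, CYP99A3, KSL4 and CYP99A2 were lower by 2-fold, at -2.65, -2.73, -2.89 and -4.11, and MAS, the momilactone synthase gene, by -0.57. CYP701A8, a P450 outside both stretches, differed by -3.07 ± 0.15. ABCG36, an ABC transporter, differed by -3.55 ± 0.22 on the probe set used and by 0.02 on its other one. For 11 of the 26 listed genes the response difference was higher at 6 h than at 3 h by 2-fold or more, against 2.23% of all genes. The median response difference of the list at 6 h was -0.06. A higher difference can come from a lower level in IR29 or a higher one in Pokkali. CYP99A2 averaged 502 at 3 h and 81.7 at 6 h of salt in IR29, against 23.1 and 83.2 in Pokkali. PBZ1 (-3.71 ± 0.10) and CYP71Z7 (-3.43 ± 0.10) still differed at 6 h. Nonabokra responses at 3 h were negative for the 4 leading genes, at -2.29 for PBZ1, -4.25 for CYP71Z7, -2.67 for CPS2 and -2.22 for CYP99A2. The last 3 were already high in unstressed Nonabokra. CYP71Z7, CPS2 and CYP99A2 averaged 522, 123 and 244 in Nonabokra controls, and 12.4, 5.82 and 39.9 at 3 h of salt.

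**Figure D3:**
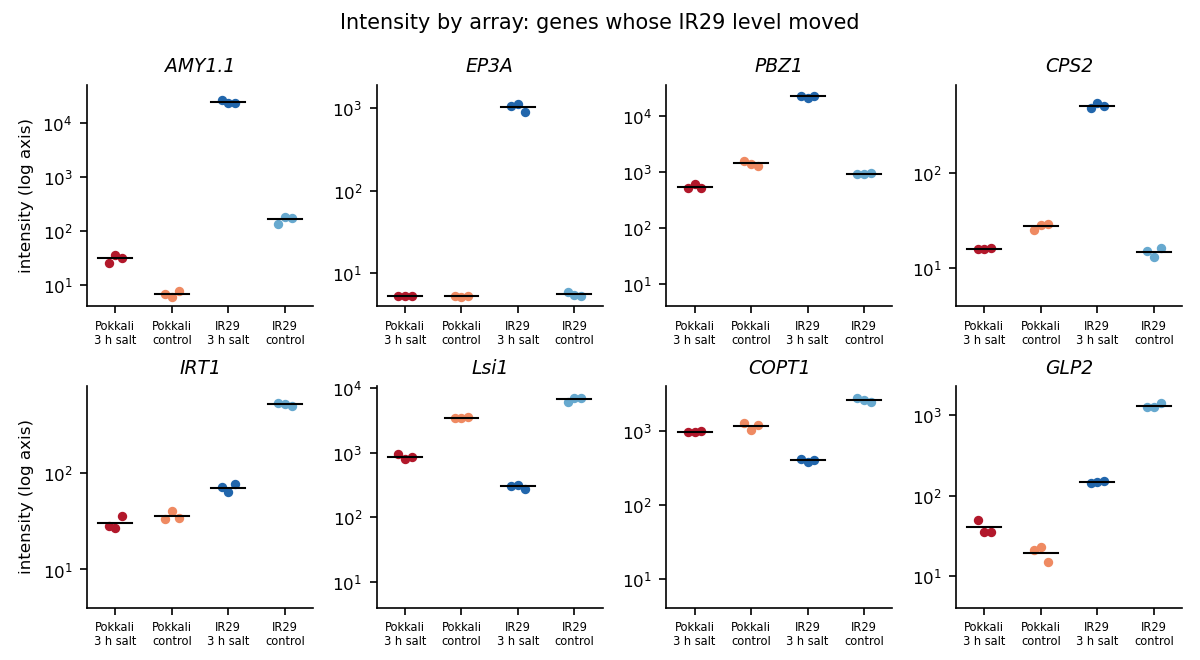
Intensity on each of the 12 arrays (points, log axis) for 8 genes, with the mean of the 3 arrays of a group as a bar. AMY1.1, EP3A, PBZ1 and CPS2 are highest on the 3 IR29 salt arrays, and IRT1, Lsi1, COPT1 and GLP2 are highest on the 3 IR29 control arrays.

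Several root uptake genes gave positive values, with deeper falls in IR29 than in Pokkali. Lsi1, the silicon influx channel of roots, had 941, 800 and 844 with salt and 3421, 3422 and 3523 without in Pokkali, against 309, 317 and 276 with salt and 6151, 6933 and 7020 without in IR29. It fell by 1.99 in Pokkali and by 4.41 in IR29, a difference of 2.42 ± 0.10 (adjusted p = 4.7e-13). Lsi2, the silicon efflux transporter that works with it, fell by 3.26 and 3.61 with a difference of 0.35 ± 0.17 that did not pass (adjusted p = 0.086). IRT1, a ferrous iron transporter, had 28.3, 27.1 and 35.7 with salt and 33.5, 40.1 and 33.8 without in Pokkali, against 70.9, 63.3 and 76 with salt and 527, 522 and 488 without in IR29. COPT1, a copper transporter, had 952, 971 and 1003 with salt and 1261, 1016 and 1187 without in Pokkali, against 410, 380 and 402 with salt and 2811, 2629 and 2456 without in IR29. Only IR29 changed by 2-fold in these genes, and the differences were 2.46 ± 0.19 and 2.44 ± 0.11. GLP2, a germin-like protein, rose by 0.66 in Pokkali and fell by 3.02 in IR29, a difference of 3.69 ± 0.16.

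Iron genes were unequal before salt and did not share a direction. YSL15, which takes up iron bound to mugineic acids, averaged 12.6 with salt and 19.1 without in Pokkali, against 699 with salt and 3143 without in IR29, and differed by 1.86 ± 0.15. Nramp1, a metal transporter, had 32.3, 31.9 and 37.1 with salt and 35.9, 35.7 and 38.9 without in Pokkali, against 9844, 8767 and 9074 with salt and 2298, 2157 and 2072 without in IR29. It rose by 2.08 in IR29, with a difference of -2.16 ± 0.09. YSL15 and Nramp1 were dim in Pokkali with and without salt. A Pokkali response could hardly be read there, and their differences mainly reflect IR29. In Nonabokra YSL15 averaged 17.1 at 3 h of salt and 15.7 in control medium, and Nramp1 30.0 and 32.7. NAAT1, an enzyme of mugineic acid synthesis, averaged 35.6 with salt and 76.7 without in Pokkali, against 4024 with salt and 2794 without in IR29. Of 56 genes of metal, silicon, nitrogen and phosphate uptake, 20 were higher and 16 lower (19.3% and 25.5% of all genes). By 2-fold 5 were higher and 6 lower.

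The root marker list moved with these genes. Of 10 root markers 7 had a higher response in Pokkali, 5 by 2-fold, and 1 a lower one (19.3% and 25.5% of all genes). In each of the 4 groups 3 of the 10 had a mean under 20, so these counts rest in part on dim signals. Their median was 1.09. In IR29 9 of them fell and 0 rose (also 0 at an unadjusted p under 0.05 in limma), and in Pokkali 4 fell and 1 rose, beside 31.4% of all genes falling in IR29 and 28.2% in Pokkali. Of the 9 falls in IR29, those of IRT2 (-0.01) and Pht1;6 (-0.05) came from means under 9 in all 4 groups. Their summed intensity was 1387 to 1599 with salt and 5100 to 5289 without in Pokkali, against 1292 to 1603 with salt and 12470 to 13197 without in IR29. Lsi1 and Lsi2 carried most of the control sums, with YSL15 beside them in IR29 only. With salt the sums of the cultivars overlapped, and without it they did not. The summed intensity of 5 green leaf markers was 74793 to 79045 with salt and 74117 to 77916 without in Pokkali, against 75938 to 82830 with salt and 68514 to 72864 without in IR29. Lsi1, YSL15 and IRT1 belong to both the uptake and the marker lists, and the part of the amount of root tissue in these values was not tested. CASP1, which builds the Casparian strip of the root, averaged 276 with salt and 132 without in Pokkali, against 67 with salt and 130 without in IR29.

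Transporters of sodium and potassium gave 1 response difference of 2-fold with the brightest probe set of each gene, and 3 over all 33 probe sets of the list. Of 25 measured, 5 were higher and 10 lower (19.3% and 25.5% of all genes), and 10 did not pass. The gene past 2-fold was HAK17, a potassium transporter of the HAK family, with 70.1, 73.5 and 73.1 with salt and 324, 360 and 425 without in Pokkali, against 1512, 1364 and 1528 with salt and 1527, 1522 and 1889 without in IR29. It fell by 2.12 in Pokkali, and its IR29 response of -0.16 did not pass. HKT1;5, which removes sodium from the xylem and is the gene behind a known salt tolerance locus, was dim, with 25.5, 21.8 and 23.8 with salt and 53, 48.4 and 66.1 without in Pokkali, against 15.5, 17.3 and 17.6 with salt and 21.1, 17.4 and 21.1 without in IR29. Its difference was -0.72 ± 0.12 (adjusted p = 0.00012). AKT1, a root potassium channel, fell by 0.97 in Pokkali and by 1.74 in IR29, a difference of 0.77 ± 0.09. HAK5, a high-affinity potassium transporter, differed by -0.57 ± 0.05 on its brightest probe set and by -2.48 on another. Of 31 CBL and CIPK genes 7 were higher and 6 lower, against the same shares of all genes. CIPK3 and CIPK5 stood at the ends, at 1.91 and -3.19, and CIPK23, which activates potassium channels, differed by -1.37 ± 0.12, and by -0.13 on its other probe set.

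Genes of water transport and growth were split. Of 25 aquaporins, 11 were higher and 8 lower (19.3% and 25.5% of all genes), 3 each by 2-fold. TIP4;1 had 3574, 3672 and 3566 with salt and 20354, 20975 and 19950 without in Pokkali, against 7256, 6765 and 7084 with salt and 14803, 14873 and 14991 without in IR29, a difference of -1.42 ± 0.06 on the brightest probe set and 0.17 on another. TIP2;1 went the other way at 1.19, falling in IR29 to a mean of 2852 with salt against 6368 without. Cellulose synthases of the secondary wall, CESA4 and CESA7, differed by -1.36 and -1.15, and expansins that loosen walls lay on both sides, with EXPA5 at -1.47 and EXPB18 at 1.72. Of 59 cell wall genes 16 were higher and 18 lower, against the same shares of all genes.

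**Figure D4:**
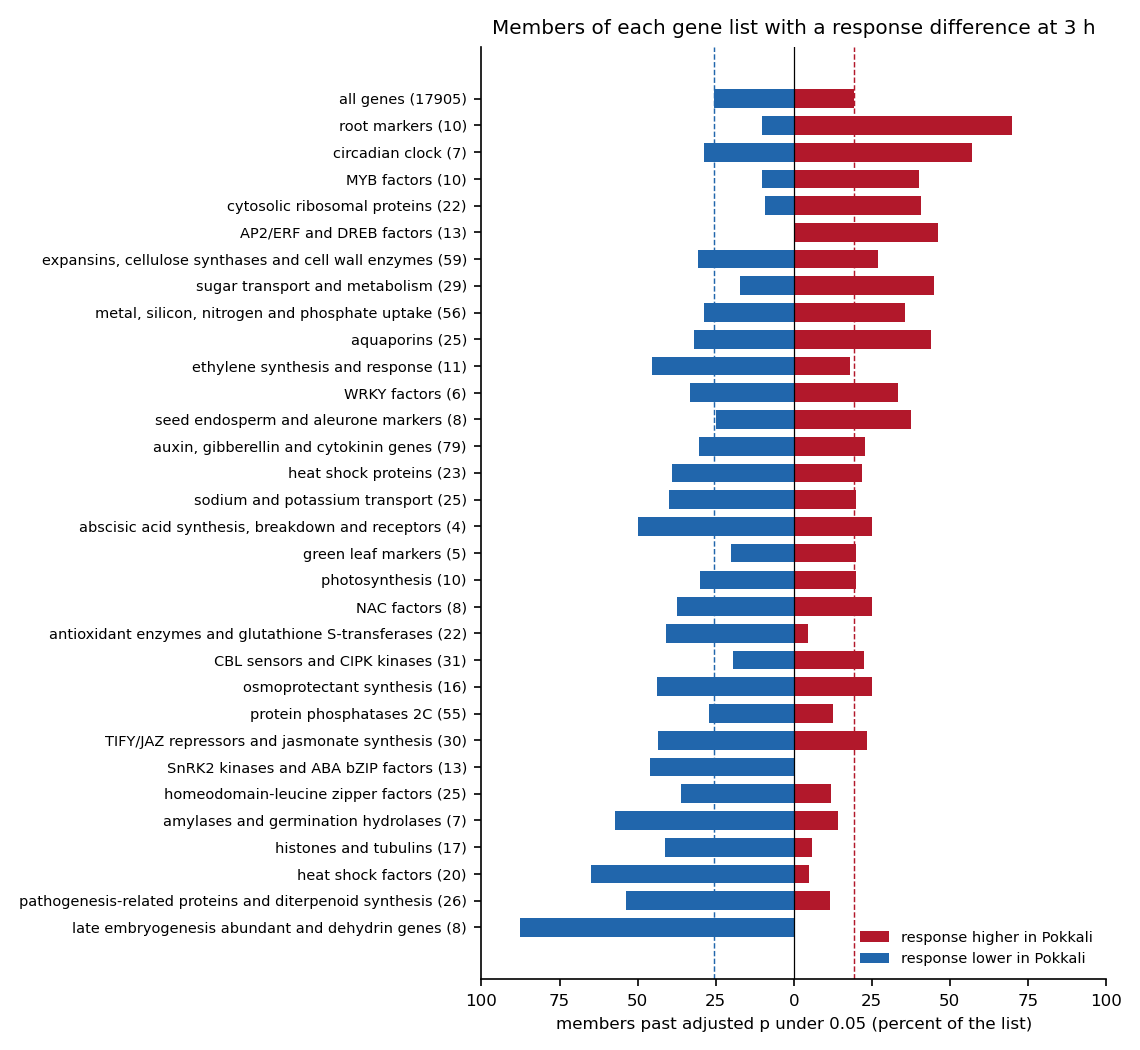
Percent of the members of each of 31 gene lists (rows, number of genes in brackets) with a response difference at adjusted p under 0.05, higher in Pokkali to the right and lower to the left. Dashed lines mark the 19.3% and 25.5% of all 17905 genes. The LEA and dehydrin list has 7 of 8 members lower, and the root markers 7 of 10 higher. Members of any intensity are counted, and in each group 3 of the 10 root markers had a mean under 20.

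The other lists held fewer large differences. Beside their counts, 19.3% of all genes were higher and 25.5% lower. Jasmonate repressors and synthesis enzymes gave 7 higher and 13 lower of 30, with JAZ11 at -1.93 and JAZ8 at -1.82, both repressors, and JAZ13 at 1.85. Ethylene genes gave 2 higher and 5 lower of 11. ACO1, the last enzyme of ethylene synthesis, averaged 7331 with salt and 1417 without in Pokkali, against 74.6 with salt and 21.2 without in IR29. The receptor ETR2 rose more in Pokkali, with a difference of 1.29 ± 0.10. Among 16 osmoprotectant genes 4 were higher and 7 lower, and P5CS1, the main enzyme of proline synthesis, rose by 1.34 and 0.89. The NAC factors gave 2 higher and 3 lower of 8, the WRKY factors 2 and 2 of 6, the MYB factors 4 and 1 of 10 and the homeodomain-leucine zipper factors 3 and 9 of 25. WRKY71 differed by 1.47, MYB2 by 1.76, NAC6 by 0.72 and NAC5 by -1.25, with another probe set of NAC6 at 0.02 and of NAC5 at -0.17. HOX24, a homeodomain factor induced by drought, rose by 4.84 in Pokkali and 5.55 in IR29, and its difference of -0.71 turned to 0.15 with a pseudocount of 64. SWEET15, a sugar exporter, rose by 4.46 and 3.54, and its difference of 0.92 did not pass with a pseudocount of 1. Cytosolic ribosomal protein genes fell in both cultivars, 19 of 22 in each (28.2% of all genes in Pokkali and 31.4% in IR29), with 9 higher and 2 lower differences, all under 2-fold. Histones and tubulins fell for 16 of 17 in Pokkali and 15 of 17 in IR29, against the same shares of all genes, with 1 higher and 7 lower differences. Photosynthesis genes gave 2 higher and 3 lower of 10, all under 2-fold, and the green leaf markers 1 and 1 of 5. Sugar transport and metabolism gave 13 higher and 5 lower of 29, and auxin, gibberellin and cytokinin genes 18 and 24 of 79. Antioxidant enzymes and glutathione S-transferases gave 1 higher and 9 lower of 22.

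BBD1 and PCL1 fell steeply in both cultivars from unequal unstressed levels. BBD1, a nuclease linked to basal defence, had 47.2, 59.2 and 52.7 with salt and 9486, 9131 and 9661 without in Pokkali, against 104, 95.4 and 102 with salt and 1684, 1734 and 1801 without in IR29. PCL1, a component of the evening complex of the circadian clock, had 99.2, 124 and 94.7 with salt and 10973, 11169 and 11079 without in Pokkali, against 182, 101 and 139 with salt and 2139, 2313 and 2240 without in IR29. The differences were -3.19 ± 0.08 and -2.64 ± 0.23. At 6 h of salt BBD1 averaged 3717 ± 168 in Pokkali and 1805 ± 59.4 in IR29, and PCL1 4244 ± 190 in Pokkali and 1860 ± 371 in IR29 (SD, n = 3 each). Harvest times of day are not given in the labels, and the controls stood for 6 h, so the effects of salt and of the hour of harvest cannot be told apart in these genes. Of 7 clock genes 4 were higher and 2 lower (19.3% and 25.5% of all genes). CCA1, PRR37 and PRR95 passed narrowly, at adjusted p between 0.043 and 0.049 in limma, and lost their call in more than 1 alternative fit.

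The 3 h and 6 h response differences share the same control arrays. For the 484 positive genes the median was 1.43 at 3 h and 1.11 at 6 h, and 21 had the opposite sign at 6 h. For the 795 negative genes the medians were -1.36 and -0.86, and 54 changed sign. Since the genes were chosen at 3 h, a smaller value at 6 h is partly built in. The direct test of 3 h against 6 h called 924 probe sets at 2-fold (1.62%), and over genes 1.01% were above and 2.23% below their 6 h value. Among the 484 positive genes, it placed 80 higher at 3 h than at 6 h and 20 lower. Among the 795 negative genes, it placed 195 lower at 3 h than at 6 h and 21 higher. Genes that changed sign are included, such as WRKY76 at -1.24 at 3 h and 1.64 at 6 h, so these are not counts of distance from 0. DREB1B stood at 6.03 ± 0.11 and RAB16D at -5.25 ± 0.09 at 6 h, both further from 0 than at 3 h (adjusted p = 2.2e-09 and 3.3e-12 in limma). IRT1 stood at 0.24 ± 0.19 at 6 h (adjusted p = 9.4e-08 for the change). ABA8OX1 stood at 3.22 ± 0.09, and its change did not pass (adjusted p = 0.33). The Nonabokra response at 3 h was nearer to that of Pokkali for 58.5% of the 484 genes and 61% of the 795, against 55.4% of the 12953 genes with a group mean of 100 or more. It lay nearer to that of Pokkali for ABA8OX1 (2.12) and LTP-2 (5.59). For RAB16D (6.36), EM (4.38) and BZIP23 (2.14) it lay nearer to that of IR29, and their Nonabokra control means were 67.4, 11.5 and 1007. The RAB16D response in Nonabokra exceeded those in IR29 (3.28) and in Pokkali (0.21).

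**Figure D5:**
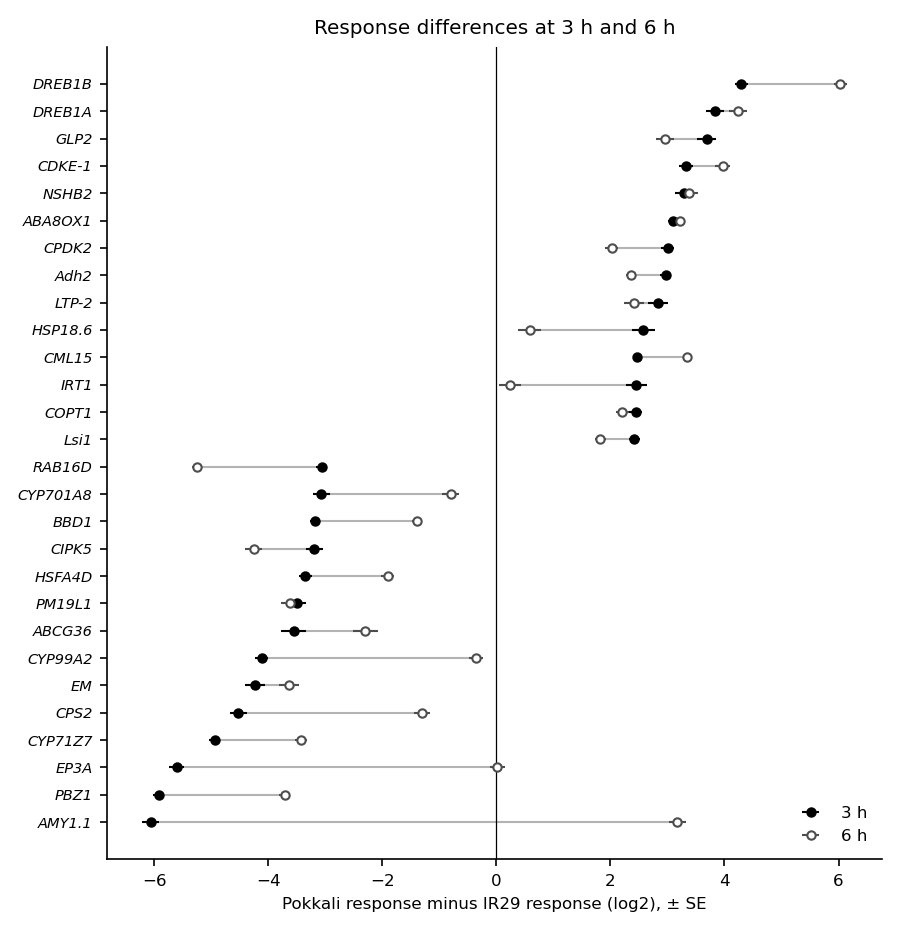
Response difference, Pokkali response minus IR29 response on the log2 scale with its SE, at 3 h (filled) and 6 h (open) for the 14 most positive and 14 most negative named genes. AMY1.1 stands at -6.06 at 3 h and 3.18 at 6 h, EP3A returns to 0.01, and DREB1B and RAB16D lie further from 0 at 6 h.

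The arrays were alike in overall intensity and correlation. Median intensities of the 12 arrays lay between 7.16 and 7.77, 28.8% to 29.7% of probe sets exceeded an intensity of 100, and the lowest correlation between arrays of a group was 0.998. Poly-A spikes changed with salt by -0.50 in Pokkali and -0.47 in IR29, a response difference of -0.03 ± 0.22. Hybridisation spikes changed by -0.16 in Pokkali and -0.18 in IR29, a response difference of 0.02 ± 0.19. The 18S rRNA probe sets differed, with mean intensities of 755 with salt and 1184 without in Pokkali, against 25.6 with salt and 2589 without in IR29, a difference of 4.97 ± 1.87. The SD of these 18S values over arrays (log2) was 2.46 with salt and 2.02 without in Pokkali, against 0.34 and 0.54 in IR29. The 5′ to 3′ ratio of actin changed with salt by -0.62 in Pokkali and -1.11 in IR29, a difference of 0.49 ± 0.49. For gapdh and ef1a the differences were -0.07 ± 0.04 and -0.01 ± 0.003. The part of these control values in the results was not tested.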

How the data were processed

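Whole-seedling RNA (500 ng) was labelled by a 3′ in vitro transcription protocol and hybridised to Affymetrix rice arrays, per the labels. The values are linear intensities deposited by the authors; their processing notes name only GCOS, and the summary method, normalization and build are not given in the sources used here. Arrays have no read depth, and 3 arrays per group limit the precision.

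Control and reporter probe sets (187 of 57381) were left out. limma 3.58.1 (R 4.3.3) was fitted to log2(intensity + 16) of all 27 arrays with 1 mean per group (18 residual degrees of freedom), and p-values were adjusted by Benjamini-Hochberg over 57194 probe sets. Adding 16 makes fold changes of dim transcripts too small. Errors are standard errors of the fit, except those of spikes, rRNA and 5′ to 3′ ratios, which lay outside it and have standard errors over arrays. The procedure was tested on simulated data.

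Platform annotation paired 22436 probe sets with 1 gene, 95 with several and 34663 with none. A gene was represented by its brightest probe set on average, and symbols were updated through RefSeq (assembly ASM3414082v1), whose coordinates served only to order neighbouring genes. Of 17905 genes, 2458 carry an informative name. Intensities of different probe sets are not on a common scale, so sums over markers describe the arrays only. Of 139 named genes, 20 rest on probe sets that may match several transcripts, and 10 have probe sets over 1 apart on the log2 scale.

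Named genes are the 14 most positive and 14 most negative with an informative name, adjusted p under 0.05 and a group mean of at least 100, up to 4 passing members of each of 31 lists, and genes fixed singly, of which NCED3, HKT1;1, NHX1 and SOS1 were not found under these names. Other genes are given as list members, and RAB16B, rab25, ZEP, ABIL1, CESA4, CESA7, TIP2;1, NAAT1, IRT2, Pht1;6, HSFA2C, AMY3A, AMY3D, GLUA-2, Cht10 and the members of both gene stretches were chosen after their values were seen. Members and lists were chosen with earlier results of these data known. Unnamed genes with a product name, and promoter motifs, were planned and not analysed here. Replicate numbers did not pair the arrays of the 4 groups. Alternatives changed the prior, the arrays fitted, the filter on dim probe sets, the scaling, the pseudocount or the threshold, weighted the arrays, added the replicate number as a block, or dropped 1 array at a time.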

Additional observations from a re-analysis of the deposited data

Results flagged for a closer look

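These results differ between the cultivars by a test of the difference itself. The response difference at 3 h passed for 26842 probe sets (46.9%), and at 2-fold or more for 2062 (3.61%). The test between the response differences at 3 h and 6 h passed at 2-fold for 924 probe sets (1.62%). Among the 139 named genes, many of them named for a large response difference, 6 passed at 2-fold in opposite directions in the 2 cultivars. Of all 12953 genes with a group mean of 100 or more, 28 did. The 6 named ones are these. DREB1B (4.29) and DREB1G (2.70) rose in Pokkali and fell in IR29. HSP24.1 (-2.99), HSFA4D (-3.35), CYP71Z7 (-4.94) and PBZ1 (-5.92) fell in Pokkali and rose in IR29.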

How the results depend on the processing

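The count of 2062 probe sets at 2-fold ranged from 2008 to 2126 when each array was left out, and 1856 of them remained called with quantile normalization; it changed by more than 1.5 times with a pseudocount of 64, to 1289. The count without the 2-fold limit (26842) ranged from 18175 to 29340 over left-out arrays. It came to 16999 in a fit to the 12 arrays alone, 12310 with quantile normalization, 11788 without the dimmest 40% and 12288 at an adjusted p under 0.01. Its share of higher calls was 74.1%, against 21.5% with median centring, 56.7% with quantile normalization and 44.4% without the dimmest 40%. The count of 924 between 3 h and 6 h ranged from 895 to 949 over left-out arrays, and was 1467 with a pseudocount of 1 and 485 with a pseudocount of 64. With a replicate block the counts were 27169, 2061 and 924, and the block ended the calls of CCA1 and PRR95 only; the replicate numbers are shared without evidence of pairing. None of the 88 named genes past 2-fold crossed the p threshold or changed sign in any of the 23 alternatives, while 17 of the other named genes did in at least 1. Of the 88, 12 were under 2-fold with a pseudocount of 64, and at most 2 in each of the other alternatives. The sign turned for GLUA-1 with median centring (-0.015, from a value near 0) and for HOX24 with a pseudocount of 64 (0.148). The cause was not tested. Signal near background limits all statements on dim probe sets.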

Other observations

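Most of the large differences lie outside the named genes. Of 1747 probe sets past 2-fold with a group mean of 100 or more, 241 belong to a gene with an informative name, 1053 to a gene known here by a locus number and 453 to no single gene. The summed root markers of the IR29 controls (12470 to 13197) exceeded those of all other 9 arrays compared (1292 to 5289).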
